A study of Homo sapiens with 90 samples.

Results

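The genes followed here are the aryl hydrocarbon receptor (AHR) and genes that belong to its pathway in human liver cells: CYP1A1, CYP1A2, CYP1B1, AHR, AHRR, ARNT, TIPARP and ALDH3A1. Members were found by gene symbol. Every probe set whose only symbol in the platform annotation was 1 of these 8 was taken, which gave 18 of the 54715 probe sets on the array, and 8 of the 19774 genes that had such a probe set. CYP1A1, AHR, AHRR, TIPARP and ALDH3A1 had 1 probe set each, CYP1A2 had 2, CYP1B1 had 4 and ARNT had 7. There were 0 probe sets that carried a member's symbol beside that of another gene.

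HepaRG, a human hepatoma cell line that differentiates into hepatocyte-like and biliary-like cells, received 1 of 3 pesticides for 24 h. Fenbuconazole and imazalil are azole fungicides, the former a triazole and the latter an imidazole, and 2,4-D (2,4-dichlorophenoxyacetic acid) is a herbicide of the chlorophenoxy kind. The 9 concentrations ran over 0.001, 0.01, 0.1, 1 and 10 µM with 0.003, 0.03, 0.3 and 3 µM between them, at 3 replicates each, and the 3 vehicle arrays were common to the 3 chemicals, so that every well held the same final share of DMSO. Cells stood in induction supplemented medium from the day before treatment in all groups, treated and vehicle alike, and all come from 1 cell line. The study's methods describe the replicates as independent experiments on separate batches of cells; they are numbered here 1 to 3 by the P code in the sample descriptions. Levels are on the log2 scale of robust multi-array averaging (RMA), which the authors ran once per chemical with the shared DMSO arrays, so each chemical has a set of 30 arrays and a level is read only within its set.

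AHR is a transcription factor that waits in the cytoplasm in a complex with HSP90 and other chaperones. When a planar aromatic compound binds it, it enters the nucleus, pairs with ARNT and binds short DNA elements with the core GCGTG near its target genes. CYP1A1, CYP1A2 and CYP1B1 are P450 enzymes that oxidize aromatic compounds, ALDH3A1 is an aldehyde dehydrogenase, and AHRR and TIPARP, themselves targets, damp the signal: AHRR as a repressor that competes for ARNT, TIPARP as an ADP-ribosyltransferase that acts on AHR. In liver, induction of CYP1A1 is the usual readout of the pathway.

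The upstream sequences of CYP1A1 and CYP1A2 are shown because these were the genes that rose most, and that of TIPARP because it holds the same core element beside a gene that passed no test. They are RefSeq promoter sequences of build GRCh38.p14, the 250 bases before the transcript start, written 5′ to 3′ in the direction of the gene. Capitals mark GCGTG and TATAAA on either strand (CACGC and TTTATA are the same letters read from the other strand), and in CYP1A2 a match on each strand overlaps in 1 run. CYP1A1 (chr15:74725529-74725778, minus strand), CYP1A2 (chr15:74748595-74748844, plus strand) and TIPARP (chr3:156674340-156674589, plus strand, the first of its 3 listed starts) read as follows.
CYP1A1: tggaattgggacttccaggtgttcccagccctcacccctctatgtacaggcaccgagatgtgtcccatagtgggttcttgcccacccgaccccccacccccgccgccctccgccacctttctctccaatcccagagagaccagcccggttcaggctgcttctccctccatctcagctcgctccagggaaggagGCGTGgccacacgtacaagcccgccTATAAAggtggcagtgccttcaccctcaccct
CYP1A2: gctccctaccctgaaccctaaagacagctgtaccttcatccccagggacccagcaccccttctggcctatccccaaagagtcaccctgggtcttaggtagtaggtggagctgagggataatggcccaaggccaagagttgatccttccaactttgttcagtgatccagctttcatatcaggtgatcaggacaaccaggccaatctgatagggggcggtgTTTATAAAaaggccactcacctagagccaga
TIPARP: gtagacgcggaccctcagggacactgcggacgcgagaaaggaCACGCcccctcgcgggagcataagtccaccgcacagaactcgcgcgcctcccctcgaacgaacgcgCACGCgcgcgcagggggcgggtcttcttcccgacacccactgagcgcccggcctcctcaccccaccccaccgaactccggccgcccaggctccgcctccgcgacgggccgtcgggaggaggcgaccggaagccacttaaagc

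CYP1A1 held GCGTG at positions -57 to -53 from its transcript start and TATAAA at -32 to -27. CYP1A2 had no GCGTG in this window and TATAAA at -31 to -26 and -29 to -24 on opposite strands. The CYP1A1 and CYP1A2 starts lie 23317 bases apart, and the genes point away from each other. TIPARP held GCGTG at -208 to -204 and -142 to -138 on the opposite strand, and its later starts held none. Of the other members, AHRR held 1 match before its first start, at -30 to -26, and 2 before its second, while AHR and ARNT held none. The table of promoters had entries for 6 of the 8 members; CYP1B1 and ALDH3A1 are named only. Of 35116 promoter windows of this length, 32.2% held GCGTG and 10.7% held TATAAA, so a match in itself is common.

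CYP1A1, CYP1A2 and ALDH3A1 were the members with a probe set that rose against DMSO, and the other 5 genes had none. Each concentration was compared with the 3 DMSO arrays by limma's moderated t over the 30 arrays of a set, with Benjamini-Hochberg adjustment over 54715 probe sets and a threshold of 0.05. In all, 7 of the 486 comparisons of a member probe set with DMSO passed: 2 for fenbuconazole, 5 for imazalil and 0 for 2,4-D. All 7 were rises, and all lay at 3 or 10 µM. At each lower concentration 0 member probe sets passed, where the share of all probe sets was 0% apart from 0.00731% at 1 µM imazalil and 0.00183% at 0.01 µM 2,4-D. At 10 µM imazalil 4 of the 18 member probe sets passed, where 0.406% of all probe sets did and 0.254% did as rises. At 10 µM fenbuconazole 2 passed, against 0.345% of all probe sets, while 0.256% of all passed as rises. At 3 µM the count was 1 for imazalil, against 0.0366% of all (0.0347% as rises), 0 for fenbuconazole, against 0.00366%, and 0 for 2,4-D, against 0.00183%. By the moderated F over the 9 concentrations 4 member probe sets passed for imazalil, against 0.214% of all, 1 for fenbuconazole, against 0.232%, and 0 for 2,4-D, against 0.00548%.

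CYP1A1 (chr15:74719542-74725528) rose with both azole fungicides and at a lower concentration with imazalil. In the DMSO arrays of replicates 1, 2 and 3 its level on the log2 scale was 2.91, 3.04 and 2.58 in the fenbuconazole set. At 3 µM fenbuconazole it was 2.92, 3.00 and 2.63, inside the DMSO values, and at 10 µM it was 4.95, 5.91 and 4.72. The lowest array at 10 µM thus stood well above the highest DMSO array, and replicate 2 was the highest. The log2 difference from DMSO was 2.35 ± 0.20 (SE, n = 3), or 5.11-fold, with a 95% interval of 1.94 to 2.76 and an adjusted p of 2.26e-08, the third largest rise among all probe sets at that concentration.

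With imazalil 3 µM was the lowest concentration at which CYP1A1 passed against DMSO. Its DMSO levels in the imazalil set were 3.08, 2.98 and 2.56, and those at 1 µM were 3.13, 3.18 and 3.45. All arrays at 1 µM lay above all DMSO arrays, as they did for 6.15% of all probe sets, but the log2 difference of 0.38 had an adjusted p of 0.843. At 3 µM the levels were 5.38, 4.27 and 4.17, and at 10 µM they were 8.41, 8.79 and 7.65. Replicate 1 was the highest at 3 µM and replicate 2 at 10 µM. The log2 difference from DMSO was 1.73 ± 0.25 (SE, n = 3) at 3 µM, or 3.32-fold, with an adjusted p of 9.81e-04. At 10 µM it was 5.41 ± 0.25, or 42.5-fold, with a 95% interval of 4.89 to 5.93 and an adjusted p of 4.06e-14, which was the largest rise of any probe set in that comparison. The call at 3 µM was lost without replicate 1 (log2 difference 1.45, adjusted p = 0.191), without replicate 2 (1.95, adjusted p = 0.0526) and when only the 6 arrays of the comparison were fitted (adjusted p = 0.541), while the calls at 10 µM for imazalil and fenbuconazole held under all 12 alternatives tried.

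Below these concentrations CYP1A1 did not pass against DMSO. The DMSO level, a mean of 2.84 to 2.87 over the sets, was low: the median of all probe sets on an array ran from 2.81 to 2.97. Whether CYP1A1 RNA was detected there was not tested, and the fold values above start from it. Over the 7 concentrations from 0.001 to 1 µM the log2 difference from DMSO ran from -0.28 to 0.097 for fenbuconazole, from -0.19 to 0.38 for imazalil and from -0.083 to 0.088 for 2,4-D. The lowest adjusted p among these was 0.843. With 2,4-D at 10 µM the levels were 3.11, 2.93 and 3.13 against 2.92, 3.00 and 2.66 in DMSO, and these ranges overlap. The log2 difference was 0.20, with a 95% interval of -0.062 to 0.46. By order of the group means in the imazalil set, 10 µM (8.28 ± 0.58, SD) stood above 3 µM (4.61 ± 0.67) with no overlap of arrays, 3 µM stood above 1 µM (3.25 ± 0.17) likewise, and from 1 µM down each group overlapped the next. In the fenbuconazole set only 10 µM (5.19 ± 0.63) stood apart from the next group in order, 0.03 µM (2.94 ± 0.071). In the 2,4-D set every group overlapped the next.

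**Figure D1:**
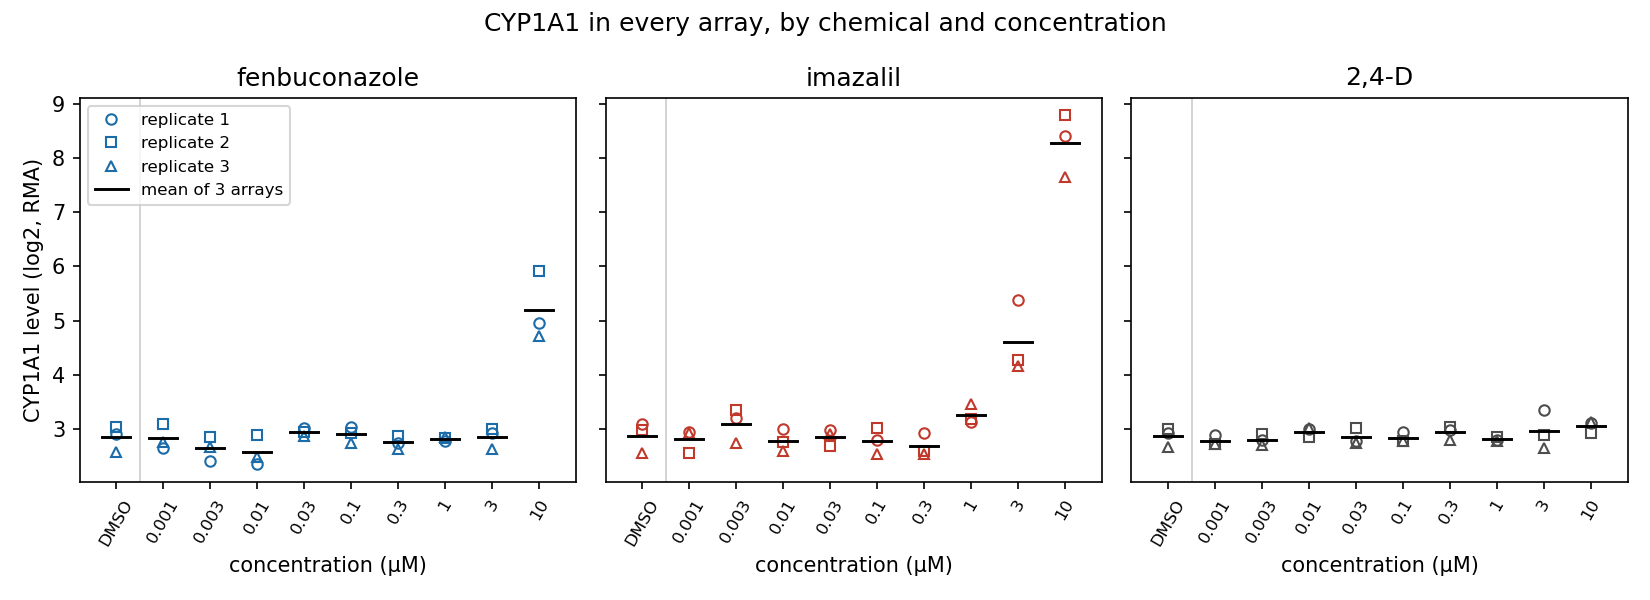
CYP1A1 level (log2 after RMA) in every array against concentration in µM, with DMSO at the left, 1 panel per chemical; symbols are replicates 1 to 3 and bars the mean of 3 arrays. The fenbuconazole arrays stand well above DMSO at 10 µM, and the imazalil arrays at 3 µM and further at 10 µM. At 1 µM imazalil the arrays lie just above DMSO without passing the test. The 2,4-D arrays stay between 2.65 and 3.34.

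The step from 3 to 10 µM, a comparison that holds no DMSO array, was steep for CYP1A1 with both fungicides. It was 2.34 ± 0.20 on the log2 scale for fenbuconazole (5.08-fold, adjusted p = 5.04e-08) and 3.68 ± 0.25 for imazalil (12.8-fold, adjusted p = 2.10e-09), and in both it was the largest step upward of any probe set. Member probe sets passed this test in 1 case for fenbuconazole, against 0.219% of all probe sets, and in 3 cases for imazalil, against 0.0822%. For 2,4-D 0 member probe sets and 0% of all passed. Within each replicate number the rise at 10 µM over its own DMSO array was 2.04, 2.87 and 2.14 for fenbuconazole and 5.34, 5.80 and 5.09 for imazalil.

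CYP1A2 (chr15:74748845-74756607), the P450 that metabolizes caffeine and is among the main P450 enzymes of the hepatocyte, rose with 10 µM imazalil by both of its probe sets. By probe set 207608_PM_x_at the DMSO levels in the imazalil set were 4.16, 3.81 and 4.06, those at 3 µM were 5.12, 5.28 and 4.26, and those at 10 µM were 7.65, 7.72 and 7.38. At 10 µM all arrays stood far above DMSO and close together, while at 3 µM replicate 3 remained near DMSO. The log2 difference at 10 µM was 3.57 ± 0.22 (SE, n = 3), or 11.9-fold, with an adjusted p of 2.60e-11, the third largest rise among all probe sets. At 3 µM it was 0.87, which did not pass. By probe set 207609_PM_s_at the DMSO levels were 3.06, 3.11 and 2.53 and those at 10 µM 5.18, 5.42 and 4.40. Its log2 difference was 2.10 ± 0.21, or 4.28-fold, with an adjusted p of 5.54e-07. The steps from 3 to 10 µM were 2.70 (adjusted p = 7.55e-08) and 1.71 (adjusted p = 1.00e-04).

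With fenbuconazole the CYP1A2 probe sets gave different answers. Probe set 207608_PM_x_at read 4.26, 4.04 and 4.37 in DMSO and 5.71, 5.66 and 4.91 at 10 µM, so all treated arrays stood above all DMSO arrays. The log2 difference was 1.20 ± 0.24, or 2.30-fold, with an adjusted p of 0.0154. That call was lost without replicate 1 (adjusted p = 0.302), without replicate 2 (adjusted p = 0.918) and in the fit of only the 6 arrays (adjusted p = 0.110), and the moderated F over all concentrations did not pass (adjusted p = 0.113). The other, 207609_PM_s_at, read 3.00, 3.16 and 2.58 in DMSO and 3.26, 3.32 and 2.96 at 10 µM, which overlap, and its log2 difference of 0.27 had a 95% interval of -0.10 to 0.64. Its DMSO mean of 2.91 lay within the range of the array medians, 2.81 to 2.97. With 2,4-D at 10 µM the log2 differences were 0.20 and 0.054, and neither passed. Probe sets of the x and s kinds can bind more than 1 transcript, so that RNA of CYP1A1, the closest relative of CYP1A2, may add to either reading.

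ALDH3A1 (chr17:19737984-19748298), which oxidizes aromatic and fatty aldehydes, rose with 10 µM imazalil by less than CYP1A1 and CYP1A2. Its DMSO levels in that set were 8.43, 8.10 and 7.97, and the levels were 8.51, 8.46 and 8.19 at 1 µM, 8.70, 8.52 and 8.26 at 3 µM, and 8.67, 8.89 and 8.61 at 10 µM. The group means thus stood in order of concentration from 1 to 10 µM, with neighbouring groups overlapping, and only the 10 µM arrays lay wholly above DMSO. The log2 difference was 0.22 at 1 µM, 0.32 at 3 µM and 0.55 ± 0.12 (SE, n = 3) at 10 µM, the last being 1.46-fold with an adjusted p of 0.0270. Without replicate 2 it was 0.44 (adjusted p = 0.877), without replicate 3 it was 0.51 (adjusted p = 0.240), and in the fit of only the 6 arrays the adjusted p was 0.447. The moderated F passed (adjusted p = 1.08e-03), but its adjusted p was 0.108 with replicate 1 left out and 0.682 with replicate 2 left out. Against the 12 arrays at 0.001 to 0.03 µM in place of DMSO the difference at 3 µM was 0.52, with an adjusted p of 0.00670. With fenbuconazole and 2,4-D at 10 µM the log2 differences from DMSO were 0.049 and 0.089, and the arrays overlapped those of DMSO.

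**Figure D2:**
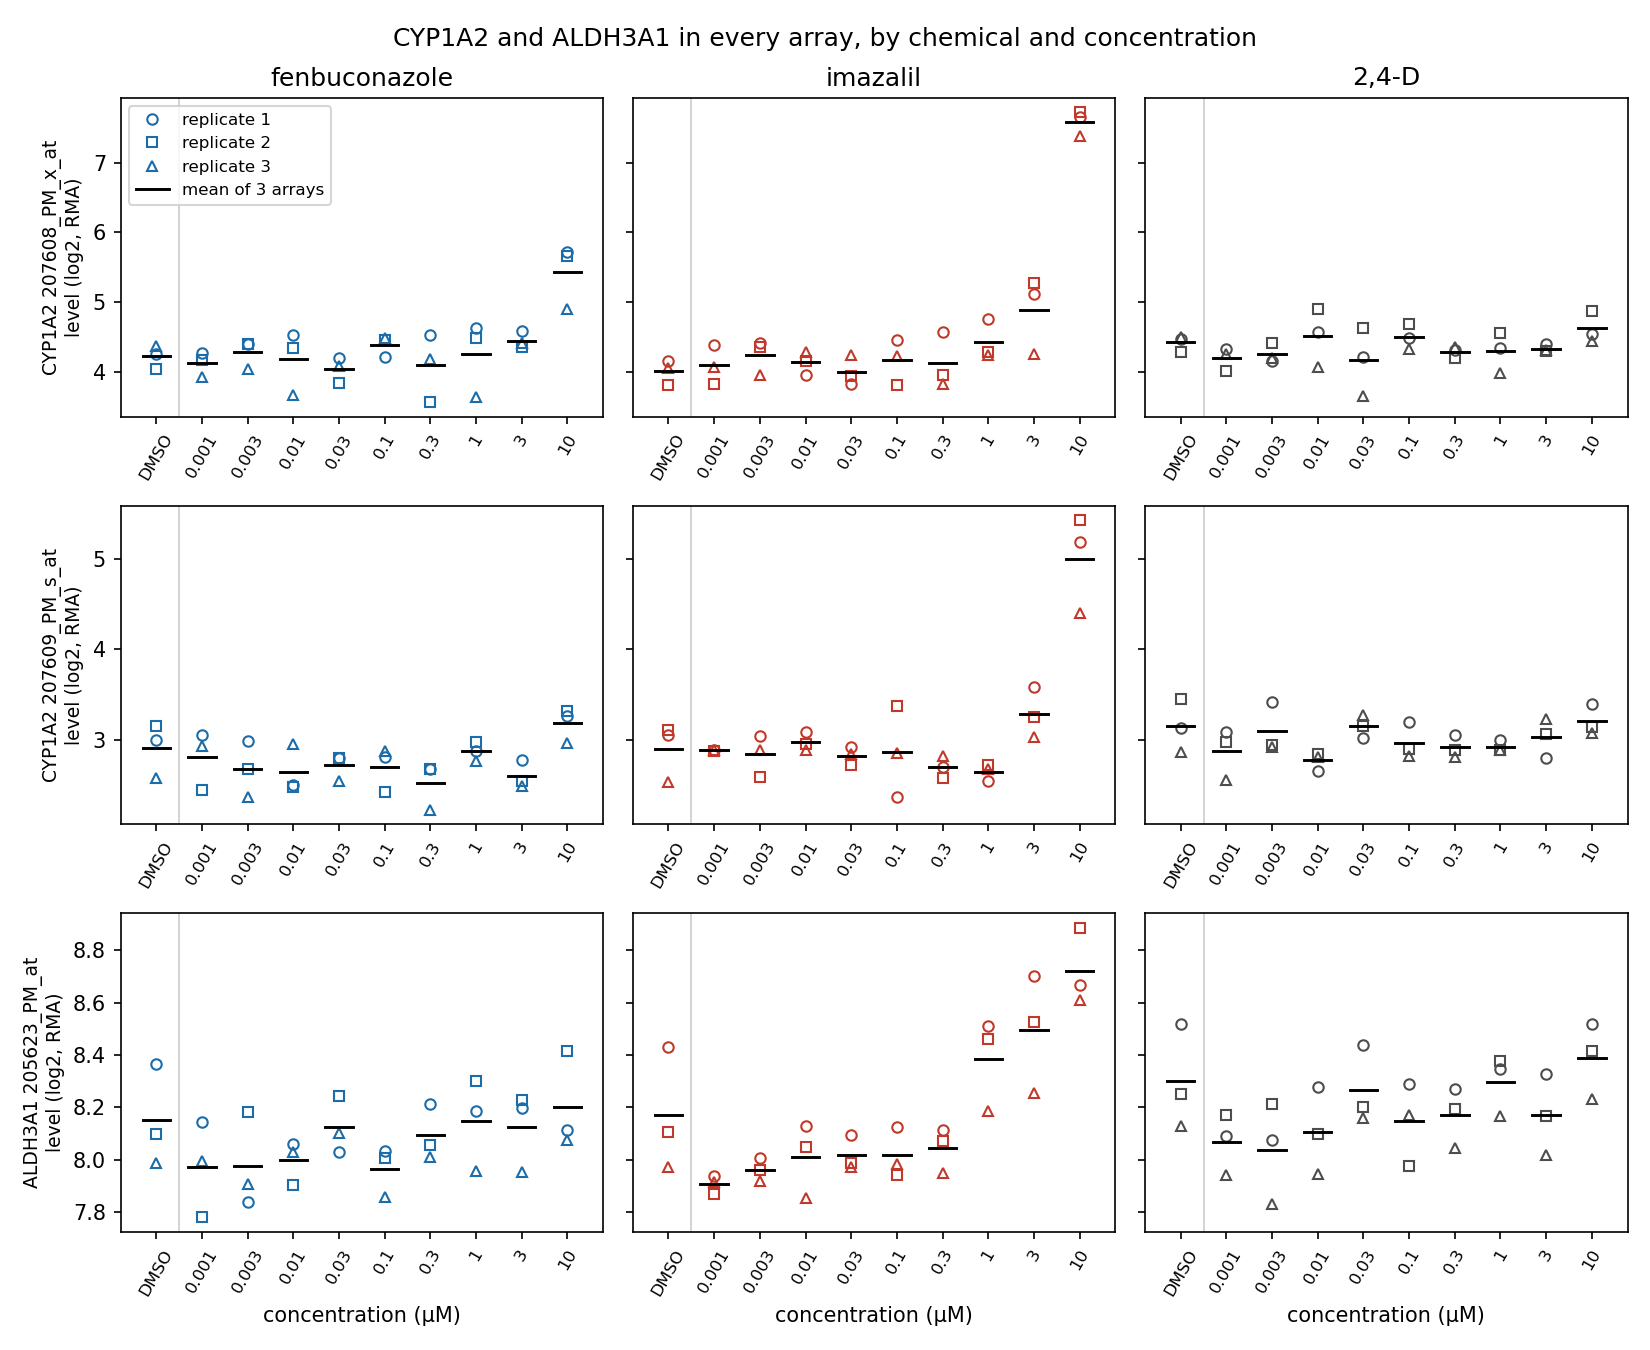
Levels (log2 after RMA) of the CYP1A2 probe sets and of ALDH3A1 in every array against concentration in µM, with DMSO at the left, 1 row per probe set and 1 column per chemical; symbols are replicates 1 to 3 and bars the mean of 3 arrays, and each row has its own scale. Both CYP1A2 probe sets rise at 10 µM imazalil, only the upper one at 10 µM fenbuconazole, and ALDH3A1 moves from a DMSO mean of 8.17 to 8.72 at 10 µM imazalil.

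CYP1B1 (chr2:38067509-38076151), the P450 of the family that is found mostly outside the liver, passed in none of its 108 comparisons with DMSO (3 at an unadjusted p under 0.05, where the share of all probe sets was 4.07% to 9.03% per contrast). Its probe set 202436_PM_s_at read 6.99, 7.10 and 7.23 in DMSO and 7.37, 7.31 and 7.42 at 10 µM fenbuconazole. All treated arrays stood above DMSO there, which held for 4.98% of all probe sets, and the log2 difference of 0.26 had an adjusted p of 0.822. At 10 µM imazalil the 4 probe sets differed from DMSO by 0.15 to 0.31 on the log2 scale, and at 10 µM 2,4-D by -0.098 to 0.044. Probe sets 202434_PM_s_at and 202435_PM_s_at were both 0.11 above DMSO at 10 µM fenbuconazole. The former was low, with DMSO means from 2.65 (imazalil set) to 2.94 (fenbuconazole set), beside array medians of 2.81 to 2.97. The widest difference at any concentration was 0.62, by 202437_PM_s_at at 0.1 µM fenbuconazole (levels of 6.03, 6.51 and 6.47 against 5.59, 5.29 and 6.25 in DMSO, adjusted p = 0.784), and that probe set also had the widest spread over its DMSO arrays.

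The receptor itself, AHR (chr7:17298652-17346147), did not pass in any of its 27 comparisons. In the fenbuconazole set AHR was at 8.63, 8.21 and 8.52 in DMSO and at 8.98, 8.33 and 8.30 at 10 µM. In the imazalil set it was at 8.65, 8.26 and 8.52 in DMSO and at 8.77, 8.17 and 8.46 at 10 µM. In the 2,4-D set it was at 8.68, 8.26 and 8.53 and at 8.63, 8.92 and 8.19. Treated and DMSO arrays overlapped in all 3 sets. The log2 differences at 10 µM were 0.087, -0.014 and 0.089, with 95% intervals of -0.27 to 0.44, -0.40 to 0.37 and -0.21 to 0.38. Over all concentrations the differences ran from -0.13 to 0.27, and 0 of the 27 had an unadjusted p under 0.05.

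ARNT (chr1:150809713-150876599), the partner that AHR needs to bind DNA, was covered by 7 probe sets, and 0 of their 189 comparisons with DMSO passed, with 16 at an unadjusted p under 0.05, where 6.03% of all probe sets were on average over the 27 contrasts. The largest difference was 0.70 on the log2 scale, by 218221_PM_at at 0.1 µM 2,4-D. It read 5.58, 5.76 and 5.60 there against 5.06, 4.52 and 5.26 in DMSO, with no overlap, as for 6.44% of all probe sets at that concentration, and an adjusted p of 0.278. In the other sets at 0.1 µM the same probe set differed from DMSO by 0.29 and 0.44, and DMSO replicate 2 was its lowest DMSO array in all 3 sets. At 10 µM 2,4-D probe set 231016_PM_s_at read 4.08, 4.69 and 4.84 against 3.86, 4.23 and 4.06 (log2 difference 0.48, adjusted p = 0.827), while 230619_PM_at read 5.52, 5.61 and 5.53 against 5.65, 5.99 and 5.97 (log2 difference -0.31, adjusted p = 0.844). Of the others, in the order fenbuconazole, imazalil and 2,4-D at 10 µM, 210828_PM_s_at differed from DMSO by 0.34, 0.26 and 0.018, and 218222_PM_x_at by -0.028, -0.12 and 0.18. Probe set 233714_PM_at differed by -0.13, -0.089 and -0.014, and 233724_PM_at by -0.094, -0.036 and -0.032. The DMSO means of these last, 2.10 to 2.17 and 2.21 to 2.39, lay under the array medians of 2.81 to 2.97. Means of ARNT probe sets thus lay on both sides of DMSO, and none of the differences passed.

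The feedback genes AHRR (chr5:321714-438285) and TIPARP (chr3:156674590-156706770) did not pass at any concentration, and 0 of their comparisons had an unadjusted p under 0.05. AHRR read 5.11, 4.55 and 5.28 in DMSO of the imazalil set and 5.02, 4.65 and 5.06 at 10 µM imazalil, so the arrays overlap. Its log2 differences at 10 µM were -0.082 for fenbuconazole, -0.069 for imazalil and -0.076 for 2,4-D, with an upper 95% bound of at most 0.31. TIPARP read 7.18, 7.07 and 6.93 in DMSO of the imazalil set and 7.38, 7.12 and 7.15 at 10 µM imazalil. These overlap as well, and the log2 difference was 0.16 with a 95% interval of -0.17 to 0.49. For fenbuconazole and 2,4-D the TIPARP differences at 10 µM were 0.039 and 0.088. All these values were taken after 24 h, and no earlier time was measured in these samples.

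**Figure D3:**
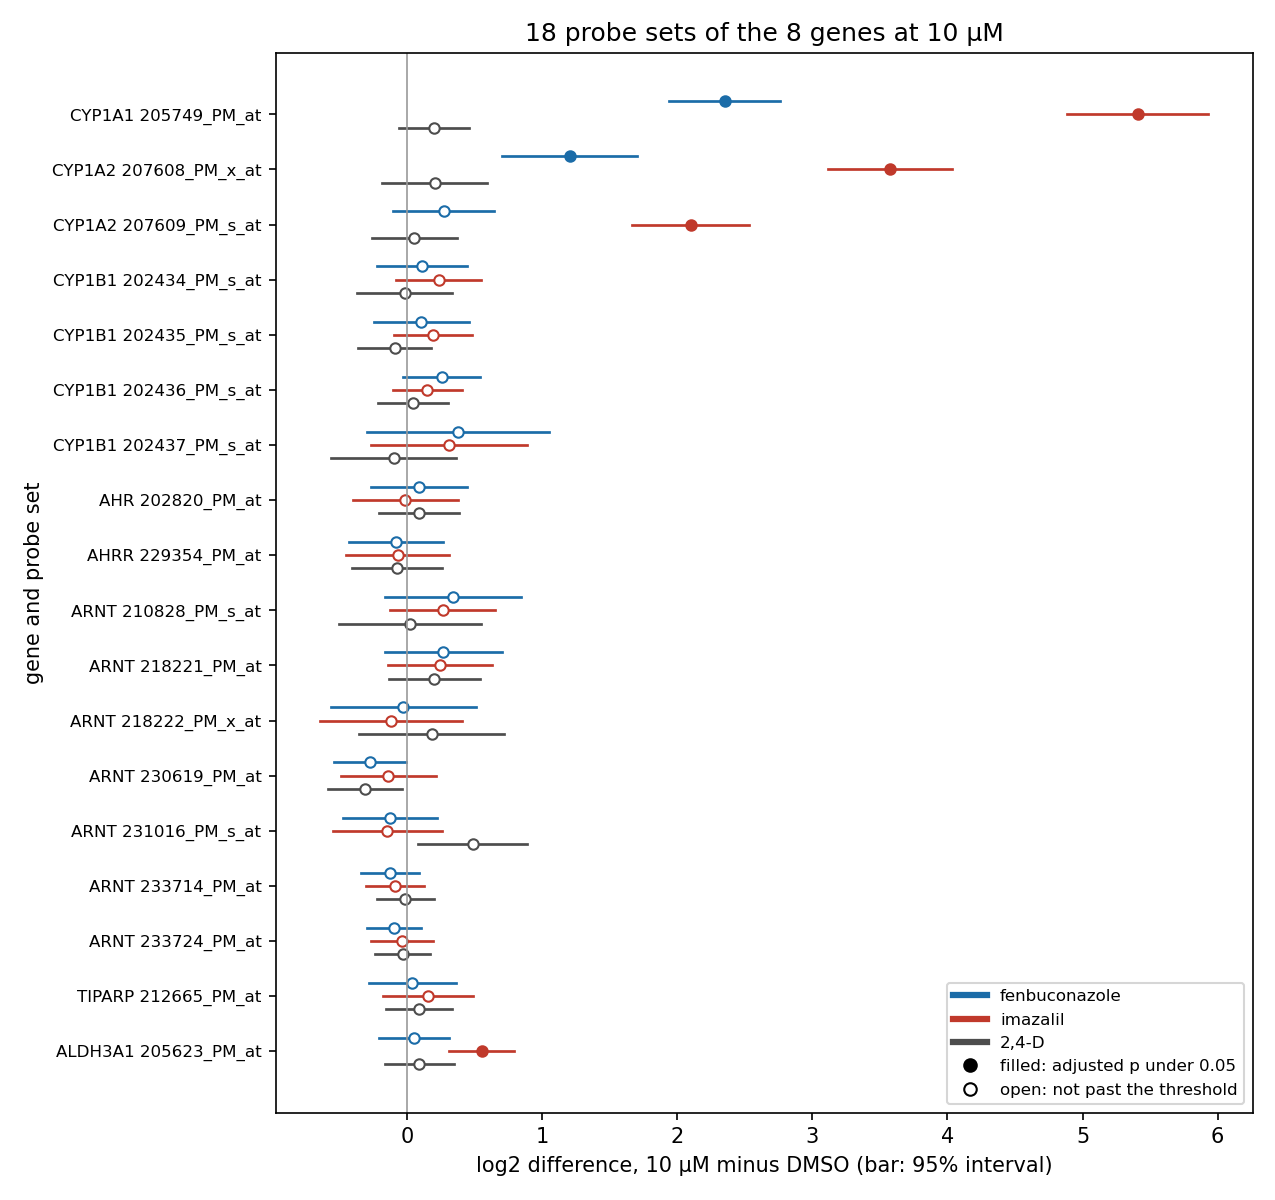
Log2 difference of 10 µM from DMSO for the 18 probe sets of the 8 genes, 1 colour per chemical; points are the difference of group means (3 arrays each), bars the 95% interval, and filled points passed an adjusted p of 0.05. Points far from 0 belong to CYP1A1 (5.41 for imazalil and 2.35 for fenbuconazole) and CYP1A2, and ALDH3A1 is filled for imazalil at 0.55.

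**Figure D4:**
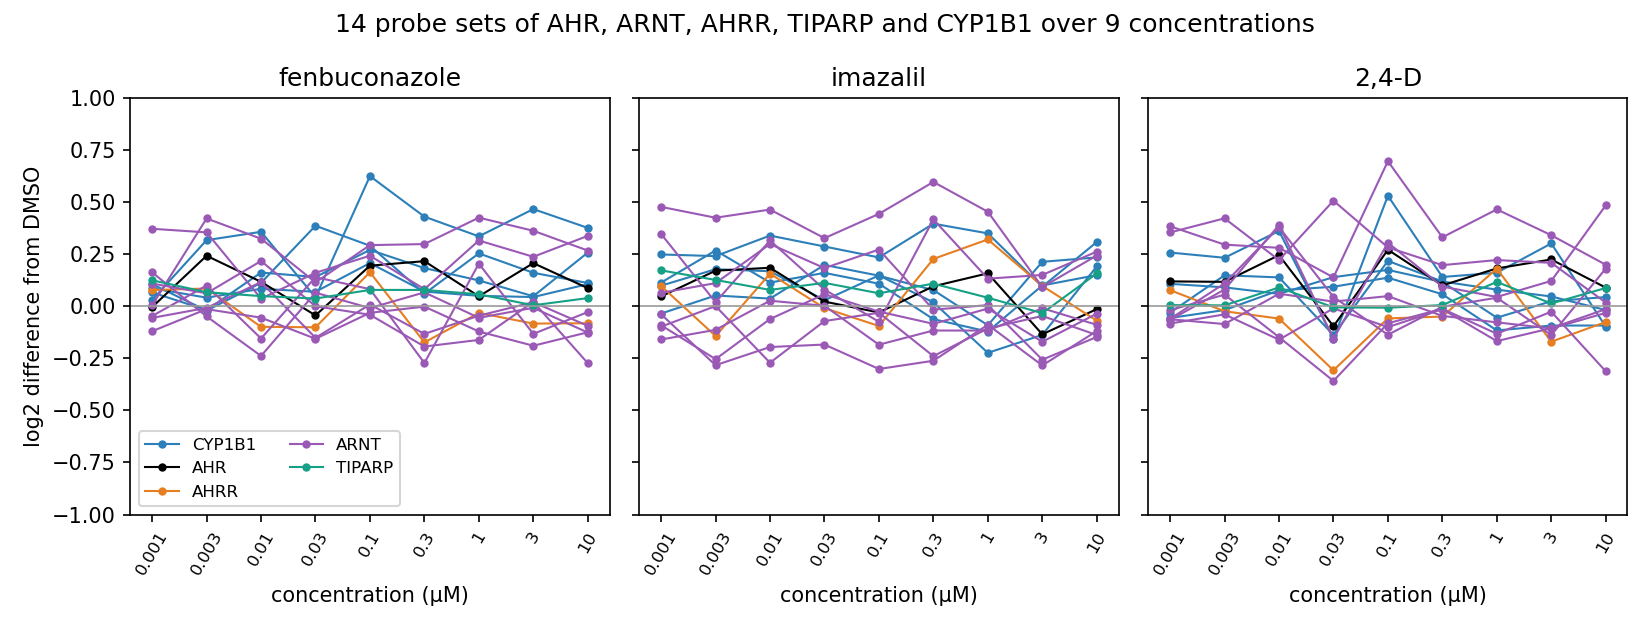
Log2 difference from DMSO of the 14 probe sets of AHR, ARNT, AHRR, TIPARP and CYP1B1 against concentration in µM, 1 panel per chemical and 1 line per probe set, coloured by gene. Lines stay between -0.36 and 0.70, the latter an ARNT probe set at 0.1 µM 2,4-D.

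Over the 18 member probe sets the median log2 difference at 10 µM was 0.097 for fenbuconazole, 0.17 for imazalil and 0.049 for 2,4-D. Over all probe sets it was -0.00033, 0.0049 and -0.00094 in that order. Of the 18 means 12, 11 and 11 were above DMSO, where 49.9%, 51.3% and 49.7% of all probe sets were. ARNT gives 7 of the 18 and CYP1B1 gives 4, so they are not 18 separate genes. All treated arrays stood above all DMSO arrays in 3, 4 and 0 of the 18 at 10 µM, where 4.98%, 6.83% and 3.76% of all probe sets did. They stood below all DMSO arrays in 1, 0 and 1 of the 18, where 5.17%, 5.69% and 4.02% of all probe sets did. For 2,4-D 0 of 162 member comparisons passed in limma, with 10 at an unadjusted p under 0.05, where 6.72% of all probe sets were on average, and a lowest adjusted p of 0.278.

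The chemicals were then compared with each other at the same concentration, each treated value being taken relative to the DMSO mean of its own set. There were 6 comparisons, the 3 pairs at 10 µM and at 3 µM. The same DMSO arrays stand behind all 3 chemicals and drop out of these differences apart from their separate RMA. At 10 µM 4 member probe sets differed between fenbuconazole and imazalil, where 0.269% of all probe sets did, and all 4 were higher with imazalil, the imidazole, as were 0.102% of all. CYP1A1 differed by -3.06 ± 0.21 on the log2 scale (fenbuconazole minus imazalil, SE, 8.32-fold), with a 95% interval of -3.48 to -2.63 and an adjusted p of 2.32e-16. CYP1A2 differed by -2.37 (207608_PM_x_at, adjusted p = 2.61e-10) and -1.83 (207609_PM_s_at, adjusted p = 2.61e-10). ALDH3A1 differed by -0.50 (95% interval -0.73 to -0.27, adjusted p = 0.0265), and lost the call without replicate 1 (adjusted p = 0.254), replicate 2 (0.569) or replicate 3 (0.219).

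Against 2,4-D at 10 µM both fungicides were higher for CYP1A1, by 2.15 ± 0.21 for fenbuconazole (adjusted p = 2.73e-11) and by 5.21 ± 0.21 for imazalil (adjusted p = 2.51e-28). Member probe sets passed in 2 cases for fenbuconazole against 2,4-D, where 0.356% of all did, and in 3 cases for imazalil against 2,4-D, where 0.389% did. The CYP1A2 probe sets were 3.37 and 2.04 higher with imazalil than with 2,4-D (adjusted p = 1.03e-16 and 2.29e-12). For fenbuconazole against 2,4-D probe set 207608_PM_x_at of CYP1A2 differed by 1.00 ± 0.24 with an adjusted p of 0.0350. Adjusted over all probe sets and all 6 comparisons together, that p was 0.0581, and it was the only call of a member that this removed. It was also lost without replicate 1 (log2 difference 0.81, adjusted p = 0.448), without replicate 2 (0.98, adjusted p = 0.302) and without subtraction of the DMSO mean (0.80, adjusted p = 0.0947). ALDH3A1 was 0.46 higher with imazalil than with 2,4-D, with a 95% interval of 0.23 to 0.69 and an adjusted p of 0.0510. That difference passed under 6 of 11 alternatives, at adjusted p from 0.00297 to 0.0381.

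At 3 µM CYP1A1 already separated the fungicides. It differed by -1.72 ± 0.21 on the log2 scale (fenbuconazole minus imazalil, 3.30-fold lower with fenbuconazole, adjusted p = 3.21e-07), where 0.0274% of all probe sets differed, and 1.63 higher with imazalil than with 2,4-D (adjusted p = 9.19e-07), where 0.0658% did. No other member passed in this fit, and without replicate 3 CYP1A2 207608_PM_x_at also passed for imazalil against 2,4-D (log2 difference 1.25, adjusted p = 0.0211). Between fenbuconazole and 2,4-D at 3 µM 0 members passed, against 0.00548% of all, and the CYP1A1 difference was -0.094 with a 95% interval of -0.52 to 0.33. For AHR, the pairs differed at 10 µM by 0.10 (fenbuconazole minus imazalil), -0.0024 (fenbuconazole minus 2,4-D) and -0.10 (imazalil minus 2,4-D), with intervals that reached no further than 0.46 from 0. For TIPARP the differences in the same order were -0.12, -0.048 and 0.070, and for AHRR they were -0.013, -0.0060 and 0.0069. None of these passed.

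Other genes of the pathway were read from lists. Of 9 genes for the AHR complex and its partners, 0 passed at 3 or 10 µM of any chemical. At an unadjusted p under 0.05 the count at 10 µM was 0 for fenbuconazole, 1 for imazalil and 0 for 2,4-D, where 6.50%, 8.32% and 5.55% of all probe sets were. The median log2 difference of the 9 at 10 µM imazalil was 0.047, where the median over all genes was 0.014. HSP90AA1, the chaperone of the resting receptor, was 0.11 above DMSO at 10 µM imazalil, and NRIP1, a cofactor of nuclear receptors, was 0.56 above it (adjusted p = 0.236).

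Of 15 other genes reported as induced through AHR, 12 were represented, without UGT1A1, SERPINB2 and GSTA2. At an unadjusted p under 0.05 the counts at 10 µM were 4 for fenbuconazole, 3 for imazalil and 0 for 2,4-D. Of all probe sets 6.50%, 8.32% and 5.55% were under it in that order. The one that passed at 10 µM was ABCG2, an efflux pump of the cell membrane, so that 1 of 12 passed with imazalil and 0 with the others, where 0.406%, 0.345% (fenbuconazole) and 0% (2,4-D) of all probe sets did. With imazalil it rose from 5.24 ± 0.42 to 6.57 ± 0.29 (SD, n = 3), a log2 difference of 1.33 (adjusted p = 1.39e-04), and with fenbuconazole it differed by 0.38 (adjusted p = 0.734). NQO1, a quinone reductase, differed by 0.41 with fenbuconazole (adjusted p = 0.583) and by 0.27 with imazalil (adjusted p = 0.615). NFE2L2, the factor behind the oxidative stress response, differed by 0.37 with imazalil (adjusted p = 0.325) and by 0.29 with fenbuconazole (adjusted p = 0.534). XDH, xanthine dehydrogenase, differed by -0.42 with imazalil (adjusted p = 0.0681) and by -0.42 with fenbuconazole (adjusted p = 0.239). The median over the 12 genes at 10 µM was 0.091 for fenbuconazole, 0.13 for imazalil and 0.036 for 2,4-D, beside medians over all genes of 0.00034, 0.014 and 0.0014. Of 8 enzymes that make endogenous ligands of AHR from tryptophan and related compounds, 0 passed at 3 or 10 µM of any chemical. At 10 µM 0 had an unadjusted p under 0.05, where 6.50% (fenbuconazole), 8.32% (imazalil) and 5.55% (2,4-D) of all probe sets did. At 3 µM the counts in that order were 1, 2 and 0, where 6.27%, 5.28% and 6.66% of all did. TPH1 and IL4I1 gave the lowest adjusted p among the falls at 10 µM, at -0.26 with fenbuconazole (0.804) and -0.28 with imazalil (0.684). Their DMSO means in these sets, 2.45 and 2.77, lay under the array medians of 2.81 to 2.97, so a fall had little room to show. Other genes of this list lay under those medians as well.

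P450 genes of other receptors also rose with the fungicides in these arrays. CYP2B6, a target of the receptor CAR, was 3.33 above DMSO on the log2 scale at 3 µM imazalil and 3.33 above it at 10 µM, a step of 0.0039 (adjusted p = 0.999). CYP3A4, a target of PXR, was 1.97 above DMSO at 3 µM imazalil and 2.70 at 10 µM, a step of 0.72 (adjusted p = 0.0120). For CYP1A1 the step from 3 to 10 µM imazalil was 3.68, as given above. With fenbuconazole CYP2B6 was 1.65 above DMSO at 3 µM and 1.78 at 10 µM, a step of 0.13 (adjusted p = 0.999). CYP3A4 was 0.66 above DMSO at 3 µM, which did not pass (adjusted p = 0.784), and 2.23 above it at 10 µM. Its step was 1.56 (adjusted p = 1.37e-06). CYP1A1 was 0.0073 and 2.35 above DMSO at these concentrations, a step of 2.34. No test compared the course of these genes with that of CYP1A1.

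Likeness to CYP1A1 was read over the 81 treated arrays, each probe set being centred on its mean over the 27 treated arrays of its set. Outside the members, the genes most like it were ALAS1 (Pearson r = 0.911), the first enzyme of heme synthesis, and CYP3A4 (205998_PM_x_at, r = 0.898). After them came CYP3A7 (r = 0.874), a fetal relative of CYP3A4, the efflux pump ABCB1 (r = 0.871) and the glutathione peroxidase GPX2 (r = 0.869). At 10 µM imazalil ALAS1 was 1.24 above DMSO, ABCB1 1.04 and GPX2 1.05 on the log2 scale. Among the members the CYP1A2 probe sets had r = 0.912 and 0.857 with CYP1A1, ALDH3A1 had 0.688, and the other 14 lay between -0.25 and 0.19. Within the 27 2,4-D arrays, where CYP1A1 did not move, r was 0.51 for ALAS1 and 0.31 for CYP1A2 207608_PM_x_at. These arrays share chemical, concentration and replicate, so the values describe likeness only.

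Markers of the hepatocyte and of other cell types were read in the same arrays. Of 8 hepatocyte markers 7 were represented, their mean level was 12.5 to 12.7 on every array, and 0 passed at 3 or 10 µM of any chemical. The share of all probe sets that passed was 0.00183% to 0.0366% at 3 µM and 0% to 0.406% at 10 µM. At an unadjusted p under 0.05 the counts of the 7 at 10 µM were 0, 1 and 0 for fenbuconazole, imazalil and 2,4-D. Of all probe sets 6.50%, 8.32% and 5.55% were under it, so so few genes cannot be told from that share. Mean levels ran from 5.09 to 5.51 for 6 biliary markers, from 6.08 to 6.73 for 5 mesenchyme markers, from 3.08 to 3.63 for 4 endothelium markers and from 3.69 to 4.10 for 5 immune cell markers. These means cover bright and dim genes alike: 3 of the biliary, 1 of the mesenchyme, 3 of the endothelium and 3 of the immune markers lay under 4, while the biliary keratin KRT19 had a mean of 10.03 and the matrix gene DCN one of 9.02. With 10 µM imazalil 1 of 6 biliary, 1 of 5 mesenchyme, 0 of 4 endothelium and 2 of 5 immune markers passed, against 0.406% of all probe sets. With 10 µM fenbuconazole the counts in that order were 1, 0, 0 and 1, against 0.345%. SPP1, a biliary marker, was 0.86 above DMSO with imazalil (adjusted p = 2.01e-05) and 0.53 with fenbuconazole (adjusted p = 0.00766). The other biliary markers went both ways with imazalil, from -0.17 (KRT19) to 0.40 (SOX9), and did not pass. COL3A1, a mesenchyme marker, was below DMSO with imazalil (difference -0.82, adjusted p = 0.00116). The other mesenchyme markers ran from -0.49 (DCN) to 0.085 (VIM) with imazalil and did not pass. Of the immune markers CD14 was 0.88 above DMSO with imazalil (adjusted p = 1.97e-06), and CD3D was below it, at -1.15 with imazalil (adjusted p = 0.00818) and -0.82 with fenbuconazole (adjusted p = 0.0326). The part of these markers in the rise of CYP1A1, CYP1A2 and ALDH3A1 was not tested. All cells came from 1 cell line, so the immune markers are read as single genes and not as immune cells. For the hepatocyte-like and biliary-like cells of the line, bulk RNA cannot tell fewer cells of a type from less RNA per cell. The mean correlation of an array with the others of its set was 0.989 to 0.995. Replicate 3 at 3 µM imazalil had the lowest (0.989), and the next lowest in its set was DMSO replicate 2 (0.991).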

How the data were processed

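RNA of each HepaRG sample was hybridised to an Affymetrix HT HG-U133+ PM array, and the authors deposited log2 values from RMA, run once per chemical with the same 3 DMSO arrays (90 columns, of which 81 are treated). RMA and Partek are the tools in the submitters' notes on processing; the version of either is not stated there or in the methods. Since RMA was run 3 times, levels of different chemicals are on slightly different scales. An array has no depth in reads, so its precision rests on how many arrays a group holds.

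Symbols came from the platform annotation, and the 13795 probe sets with several symbols or none were tested but not named. For other genes the brightest probe set with that symbol alone stood for the gene. Group means of the 30 arrays of a set were fitted with limma 3.58.1 (lmFit and eBayes, R 4.3.3), with two-sided moderated t against DMSO and from 3 to 10 µM, a moderated F over 9 contrasts, and Benjamini-Hochberg adjustment over 54715 probe sets at 0.05. Chemicals were compared on the 81 treated columns minus the DMSO mean of each set. Intervals are 95% intervals of the moderated t. Fits were tested on simulated data. The plots were made in matplotlib 3.10.9 (Python 3.11.15).

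All 18 member probe sets entered each comparison and are given by name or range. Of each other list up to 4 genes with the smallest adjusted p are named. CYP2B6, CYP3A4 and the 5 genes outside the members most like CYP1A1 are named too. Members, lists and tests were chosen with earlier results of these data known. Replicate numbers follow the P code of the descriptions, and the numbers in some 2,4-D titles differ from it. Promoter sequences are those of RefSeq (GRCh38.p14).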

Additional observations from a re-analysis of the deposited data

How the results depend on the processing

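Of the counts of member probe sets past the test, 421 of 441 values under an alternative stayed within 1.5 times the reported count, 20 moved, and 0 single differences reversed after a call. With the P code as replicate block 2 member probe sets passed for the fenbuconazole step from 3 to 10 µM, 2 by the fenbuconazole F and 3 for imazalil against 2,4-D at 3 µM; with the title number as block the first 2 counts were also 2. Same-numbered treated and DMSO arrays at 3 and 10 µM had correlated deviations of -0.18 to 0.30, and all 3 pairs were above 0.1 for fenbuconazole at 3 µM and imazalil at 10 µM but not in the other 4 groups, so the numbers were not treated as pairs. The block added CYP1A2 207608_PM_x_at to the fenbuconazole step (adjusted p = 0.0432) and F (adjusted p = 0.0219) and to imazalil against 2,4-D at 3 µM (adjusted p = 0.0404), and ALDH3A1 to imazalil against 2,4-D at 3 µM (adjusted p = 0.0182) and 10 µM (adjusted p = 0.00297).

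With an intensity trend in eBayes the fenbuconazole F counted 2, and with a linear trend over log10 concentration 0, where CYP1A1 had an adjusted p of 0.165. With only the 6 arrays of a comparison 1 member passed at 10 µM fenbuconazole and 0 at 3 µM imazalil. With the 12 arrays at 0.001 to 0.03 µM as reference 2 passed at 3 µM imazalil. Without subtraction of the DMSO mean 1 passed for fenbuconazole against 2,4-D at 10 µM and 2 for fenbuconazole against imazalil at 3 µM. Leaving out replicate 1, 2 or 3 gave 1 to 2 at 10 µM fenbuconazole, 0 to 1 at 3 µM imazalil, 1 to 2 for fenbuconazole against 2,4-D at 10 µM, 1 to 2 for the fenbuconazole step and 1 to 2 for imazalil against 2,4-D at 3 µM. Centring the arrays on their median, quantile normalization, 1 probe set per gene and a filter on low levels moved none of these counts by over 1.5 times. The causes were not tested.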
